A study of Mus musculus with 15 samples.

Results

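The genes described here are 10 genes of eosinophils, basophils and mast cells, measured in 15 mouse spleens that carried acute promyelocytic leukaemia (APL). The eosinophil members were Prg2, Prg3 and Epx. The mast cell and basophil members were Cpa3, Hdc, Mcpt8, Ms4a2, Fcer1a, Prss34 and Cma1. They were chosen by name, 10 of the 16299 genes that had probesets of their own, and all 10 were found. Each of the 15 arrays held RNA of 1 tumour-bearing spleen from a mouse of strain Bl/6 Taconic, and all of them form 1 group. Genotype, age, sex, any treatment and any unaffected control spleen are not given in the sources used here, so all comparisons are between tumours. The question asked was whether the eosinophil members and the mast cell and basophil members rose and fell over the tumours as a single programme or as separate ones.

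Eosinophils, basophils and mast cells are granule-bearing cells that arise from myeloid progenitors and act in allergy and defence against parasites. Eosinophil granules hold cationic proteins and a peroxidase. Mast cells and basophils carry the high-affinity receptor for immunoglobulin E, store histamine and pack their granules with proteases, and transcription factors of the GATA family act in all 3 lineages. APL is a leukaemia of cells arrested near the promyelocyte stage of neutrophil development. The samples are whole spleens, so fewer cells of a type and less RNA per cell cannot be told apart in any value below.

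The promoters of 4 members are shown because GATA factors act in these lineages and because these genes represent the patterns described below: Prg3 the eosinophil pattern, Cpa3 the mast cell gene nearest to it, and Prss34 with Fcer1a a pattern of their own. Each sequence is the 250 bases before the start of the gene, 5′ to 3′ on the strand of the gene, from RefSeq (build GRCm38.p6). They lie at chr2:84987965-84988214 on the plus strand for Prg3, chr3:20242182-20242431 on the minus strand for Cpa3, chr17:25298144-25298393 on the plus strand for Prss34 and chr1:173227230-173227479 on the minus strand for Fcer1a. Capitals mark a GATA hexamer, searched on both strands in 4 forms: AGATAA with its reverse complement TTATCT, then AGATAG with its reverse complement CTATCT, then TGATAA with its reverse complement TTATCA, then TGATAG with its reverse complement CTATCA. Matches were allowed to overlap.
Prg3: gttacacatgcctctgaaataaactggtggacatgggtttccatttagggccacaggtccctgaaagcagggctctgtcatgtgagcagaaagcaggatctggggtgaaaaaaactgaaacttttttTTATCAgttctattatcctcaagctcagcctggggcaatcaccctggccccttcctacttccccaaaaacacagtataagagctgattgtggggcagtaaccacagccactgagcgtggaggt
Cpa3: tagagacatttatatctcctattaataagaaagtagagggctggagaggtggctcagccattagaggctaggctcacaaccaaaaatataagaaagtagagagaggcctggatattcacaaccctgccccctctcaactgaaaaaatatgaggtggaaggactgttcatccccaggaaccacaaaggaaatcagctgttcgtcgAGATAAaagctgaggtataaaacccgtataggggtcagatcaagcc
Prss34: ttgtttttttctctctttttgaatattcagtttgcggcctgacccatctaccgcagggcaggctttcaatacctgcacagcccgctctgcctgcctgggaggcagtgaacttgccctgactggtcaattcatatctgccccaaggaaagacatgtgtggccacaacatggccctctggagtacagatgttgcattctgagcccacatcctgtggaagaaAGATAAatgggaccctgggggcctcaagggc
Fcer1a: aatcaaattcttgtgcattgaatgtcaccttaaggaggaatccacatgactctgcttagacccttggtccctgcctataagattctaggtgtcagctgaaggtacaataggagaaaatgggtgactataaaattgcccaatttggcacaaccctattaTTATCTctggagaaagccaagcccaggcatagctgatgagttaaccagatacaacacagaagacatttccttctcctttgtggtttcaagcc
Of the 9 members matched in the promoter table, 7 (77.8%) held at least 1 of these hexamers in this window, against 8718 of all 32851 promoters (26.5%). The first base of the hexamer lay 123 bases before the start in Prg3, 46 in Cpa3, 31 in Prss34 and 92 in Fcer1a. Ms4a2 held 3 hexamers, at 224, 37 and 11 bases before the start, Hdc 1 at 221 and Cma1 1 at 79. Epx and Mcpt8 held none of these letters in this window. Prg2 is not among the matched genes. A match of letters is a description of the sequence and not a binding site.

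Values are log2 intensities, and the value of a gene is the median over its probesets, the short probe groups that target parts of its exons. A gene was called detected where its mean over the tumours lay above 6.41, the 40th percentile of the means of all genes, which left 9779 genes. That limit is a percentile and was not measured against background probes. Values below it may be background, and folds are given only between values above it. Levels of different genes are not set against each other, because probes differ in brightness. Array medians lay between 108 and 129 on the intensity scale and the correlation between arrays over detected genes ranged from 0.85 to 0.97. Each tumour was measured on 1 array, so neighbouring tumours in the order of a gene have no replicate error, and the number of arrays limits the precision. Of the members, 7 were detected: Prg2, Prg3, Epx, Cpa3, Hdc, Mcpt8 and Prss34. Ms4a2, Fcer1a and Cma1 were not, so the alpha and beta chains of the immunoglobulin E receptor and the mast cell chymase, which mark mature mast cells, had mean gene values below the limit.

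**Figure D1:**
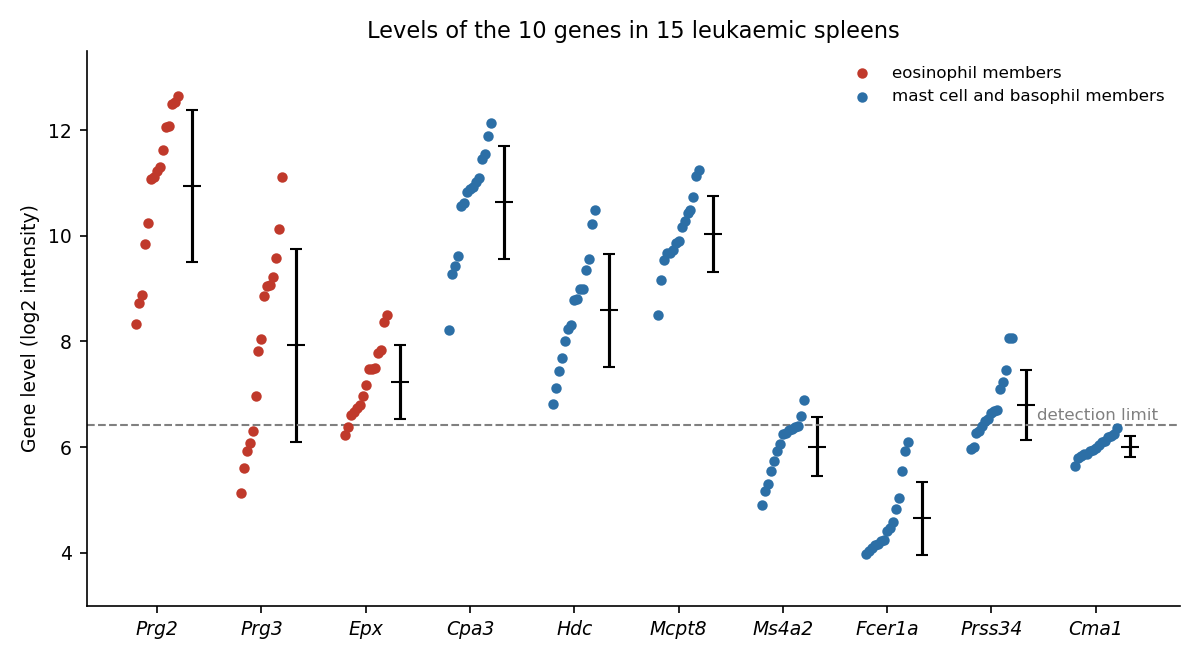
Level of each of the 10 genes (log2 intensity, vertical axis) in each of 15 tumours, drawn from the lowest to the highest tumour within each gene, with the mean and SD in black. Prg2 spans 8.34 to 12.65 and Prg3 5.14 to 11.11, while Ms4a2, Fcer1a and Cma1 have means below the detection limit of 6.41 (dashed line).

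Prg2 encodes major basic protein, the main cationic protein of the eosinophil granule. Its level was 10.94 ± 1.43 (SD, n = 15), lowest in tumor_36 (8.34), tumor_9514 (8.73) and tumor_29 (8.87) and highest in tumor_33 (12.65), tumor_31 (12.53) and tumor_9523 (12.48). A step of 0.98 separated the 3 lowest tumours from the next, tumor_9529 at 9.85, and the tumours from tumor_9495 upwards lay between 11.08 and 12.65. All 15 tumours were above the detection limit, and the highest was 19.9-fold above the lowest. Of all detected genes, 0.256% had an SD at least as large.

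Prg3 encodes a close relative of major basic protein and lies beside Prg2 on chromosome 2. Its level was 7.93 ± 1.83 (SD, n = 15), from 5.14 in tumor_36 through a median of 8.04 to 11.11 in tumor_33. It lay at or below the detection limit in 5 tumours, tumor_36, tumor_9514, tumor_29, tumor_9529 and tumor_9504, which were also the 5 lowest in Prg2. Only 0.102% of detected genes had an SD as large. Prg2 and Prg3 are related in sequence, and whether any probe takes up RNA of both was not tested.

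Epx encodes eosinophil peroxidase. Its level was 7.23 ± 0.69 (SD, n = 15), lowest in tumor_29 (6.23) and tumor_9514 (6.37), which lay below the limit, with a median of 7.18. It was highest in tumor_31 (8.50) and tumor_9500 (8.37), a step of 0.54 above the next tumour. Tumor_31 ranked 3 of 15 in Prg3 and tumor_9500 ranked 5. The gene value understates part of the signal, because its 16 probesets differed: 3 of them had an SD above 1, up to 1.97, and the brightest, with a mean of 10.99, had an SD of 0.55.

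Cpa3 encodes carboxypeptidase A of mast cell granules, also made by basophils and by early progenitors of both. Its level was 10.63 ± 1.07 (SD, n = 15), lowest in tumor_9529 (8.22), with tumor_36 (9.27), tumor_9520 (9.43) and tumor_29 (9.61) next. The other 11 tumours lay between 10.57 and 12.13, with tumor_33 highest and tumor_9523 second at 11.89. The highest was 15.0-fold above the lowest. All 14 probesets had means above the limit and agreed closely, with a median correlation between them of 0.96.

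Hdc encodes histidine decarboxylase, which makes histamine. Its level was 8.59 ± 1.07 (SD, n = 15), from 6.82 in tumor_9509 and 7.11 in tumor_36 through a median of 8.78 to 10.21 in tumor_33 and 10.49 in tumor_9523. Tumor_29 was the third highest at 9.55, although it was among the 3 lowest in Prg2 and Prg3 and the lowest in Epx.

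Mcpt8 encodes a basophil granule protease. Its level was 10.03 ± 0.73 (SD, n = 15), lowest in tumor_36 (8.50) and tumor_29 (9.15), with a median of 9.90, and highest in tumor_9523 (11.24) and tumor_9504 (11.13). Tumor_9529, the lowest in Cpa3, ranked 4 of 15 in Mcpt8 at 10.49.

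Prss34 encodes another protease of basophils and mast cells. Its level was 6.80 ± 0.66 (SD, n = 15), from 5.97 in tumor_36 through a median of 6.65 to 8.06 in tumor_9508 and 8.07 in tumor_9504, and 5 tumours lay at or below the limit. Tumor_9508 and tumor_9504 ranked 6 and 11 of 15 in Prg2, 4 and 11 in Cpa3, 9 and 12 in Hdc, and 7 and 2 in Mcpt8. Only 5 of its 9 probesets shared this pattern, with SDs of 0.65 to 1.23 and means of 5.98 to 7.19, while the other 4 were nearly flat, with SDs of 0.17 to 0.34.

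The 3 members below the limit encode parts of the mature mast cell and basophil phenotype. Fcer1a, the chain of the receptor that binds immunoglobulin E, lay at 4.65 ± 0.69 (SD, n = 15), with a median of 4.42 and its highest values in tumor_9508 (6.10), tumor_9504 (5.92) and tumor_9520 (5.55). No tumour passed the limit in the gene value. Of its 4 probesets, 1 lay above the limit in every tumour, from 6.64 to 7.63, and varied little, and another reached 7.66 in tumor_9508. Ms4a2, the signal-amplifying beta chain of the same receptor, lay at 6.01 ± 0.57, from 4.91 in tumor_31 to 6.89 in tumor_9508, and 2 tumours lay above the limit. Its 7 probesets agreed poorly, with a median correlation between them of 0.26, and 3 of them had means above the limit, up to 8.02. Cma1, the mast cell chymase, lay at 6.01 ± 0.20, between 5.64 and 6.35, and 81.6% of detected genes varied at least as much. The probesets of Cma1 did not vary together, with a median correlation between them of -0.01, and 5 of its 15 had means above the limit, up to 8.42.

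**Figure D2:**
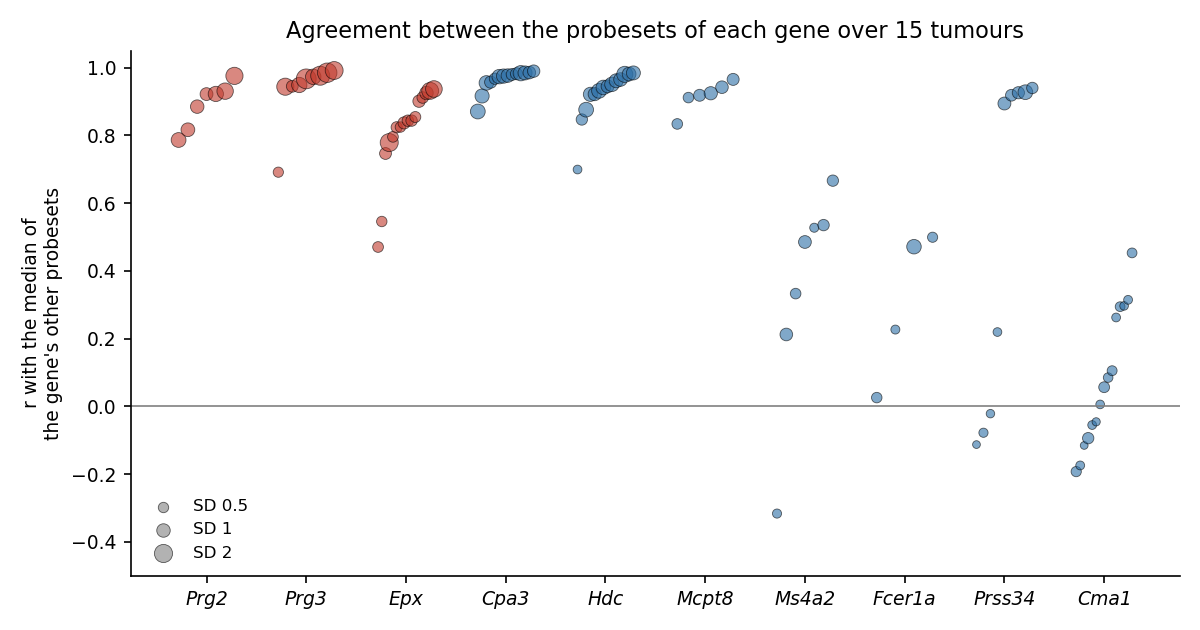
Each point is 1 probeset, placed by the correlation of its log2 intensity over 15 tumours with the median of the other probesets of the same gene (vertical axis), with point area growing with the SD of the probeset. All probesets of Prg2, Cpa3, Hdc and Mcpt8 lie above 0.69, 5 of the 9 of Prss34 lie above 0.5, and those of Cma1 scatter from -0.19 to 0.45.

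No member differed between the 10 tumours with a 4-digit number and the 5 with a 2-digit number after adjustment over all genes by limma (0 of 9779 genes called, 0%; 227 genes, 2.32%, at an unadjusted p under 0.05). What the numbers stand for is not given in the sources used here. Mcpt8 had the smallest unadjusted p among the members. It was lower in the 2-digit tumours, by a difference of -0.71 ± 0.32 (SE) on the log2 scale, with a limma adjusted p of 0.9997.

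**Figure D3:**
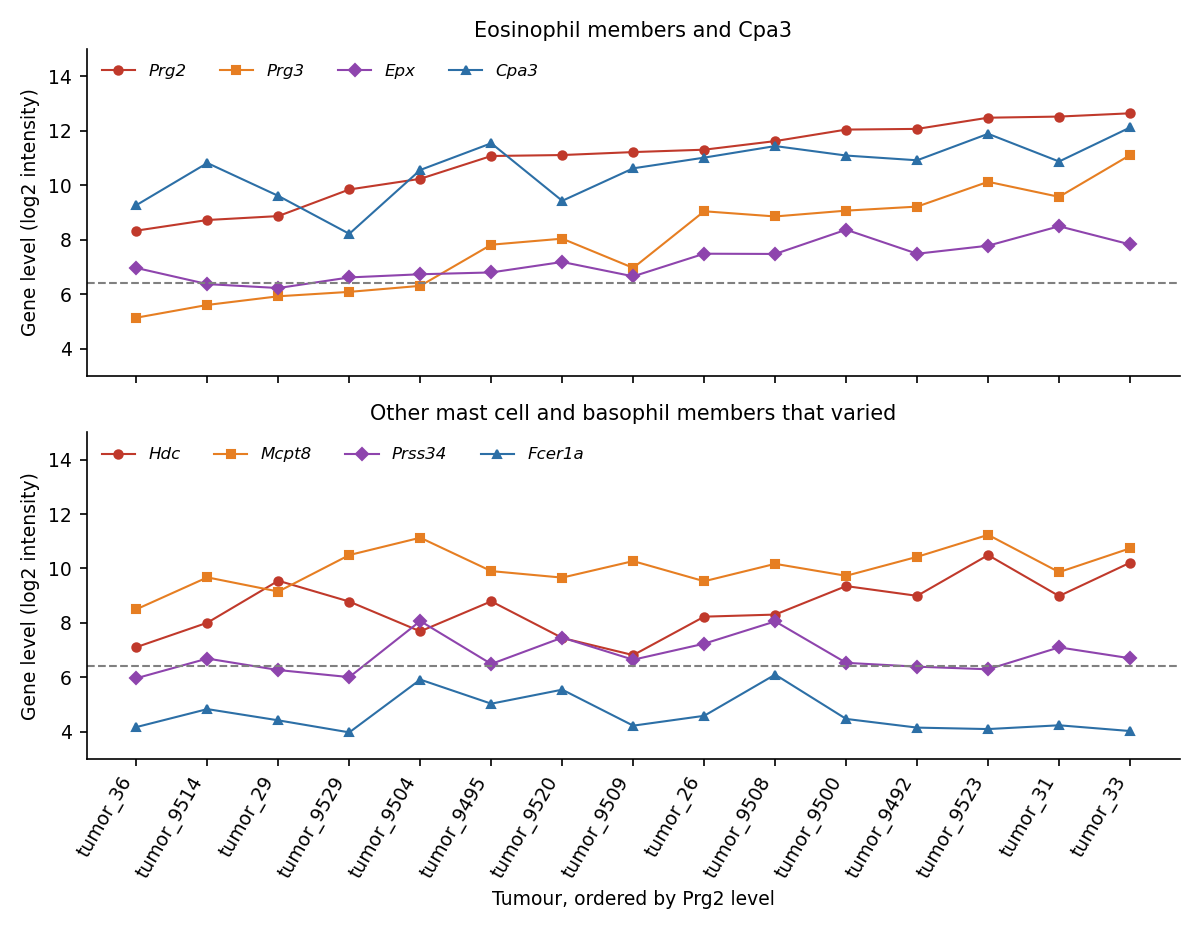
Level (log2 intensity, vertical axis) of 8 members in 15 tumours ordered by Prg2, with the detection limit dashed. Prg3 climbs with Prg2 from 5.14 to 11.11, Cpa3 departs from them in tumor_9514, tumor_9529 and tumor_9520, and Prss34 and Fcer1a peak in tumor_9504 and tumor_9508.

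The eosinophil members varied together. Between Prg2 and Prg3 Pearson's r was 0.94 (95% interval 0.84 to 0.98, n = 15) and Spearman's rho 0.98, each with a permutation p of 1.0e-05, the smallest that 100000 resamples can give (two-sided, as for all permutation tests here). The value was 0.93 without tumor_36 and tumor_9514, the tumours farthest from the median of Prg2, and 0.94 among the 10 tumours named by 4-digit numbers. Epx followed both, with r = 0.80 to Prg2 (0.50 to 0.93, permutation p = 3.8e-04, rho = 0.85 with permutation p = 1.6e-04) and r = 0.82 to Prg3 (0.54 to 0.94, permutation p = 2.1e-04, rho = 0.87 with permutation p = 5.0e-05). With the farthest tumours left out these became 0.87 and 0.89, and within the 4-digit tumours 0.82 and 0.87.

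The mast cell and basophil members varied less closely with each other. Among the 4 detected, none of the 6 pairs had a permutation p under 0.05 for Pearson's r. Cpa3 and Hdc gave r = 0.44 (-0.09 to 0.78, permutation p = 0.0992, rho = 0.59 with permutation p = 0.0218), and 0.52 without tumor_36 and tumor_9529. Cpa3 and Mcpt8 gave r = 0.41 (-0.13 to 0.76, permutation p = 0.126, rho = 0.38 with permutation p = 0.161). Hdc and Mcpt8 gave r = 0.38 (-0.16 to 0.75, permutation p = 0.161, rho = 0.32 with permutation p = 0.242). The 3 pairs with Prss34 lay between -0.29 and 0.27. With 15 tumours these intervals are wide, and values missing the threshold do not show that the genes vary independently.

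Single tumours moved several of these pairs, in both directions. Without tumor_9529, where Cpa3 was lowest and Mcpt8 and Hdc were not, Cpa3 and Mcpt8 gave r = 0.68 (permutation p = 0.0076) and Cpa3 and Hdc r = 0.61 (permutation p = 0.0215). Without tumor_29 Cpa3 and Hdc gave r = 0.54 (permutation p = 0.0438), and without tumor_9504 Hdc and Mcpt8 gave 0.54 (permutation p = 0.0455). Other omissions lowered the same pairs. Cpa3 and Hdc fell to 0.33 without tumor_33 (permutation p = 0.243) and Cpa3 and Mcpt8 to 0.27 without tumor_36 (permutation p = 0.348). Hdc and Mcpt8 fell to 0.20 without tumor_9523 (permutation p = 0.495). Of 15 omissions, 2 took Cpa3 with Hdc below 0.05, 1 Cpa3 with Mcpt8 and 1 Hdc with Mcpt8. In contrast, all 3 eosinophil pairs kept a permutation p under 0.05 with each of the 15 tumours left out, with r between 0.77 and 0.96.

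Between the sets, Cpa3 was the member most closely tied to the eosinophil genes. Its r was 0.72 with Prg3 (0.33 to 0.90, permutation p = 0.0022, rho = 0.75 with permutation p = 0.0018) and 0.66 with Prg2 (0.23 to 0.88, permutation p = 0.0068, rho = 0.72 with permutation p = 0.0033). Both kept a permutation p under 0.05 with any 1 tumour left out, at 0.66 to 0.79 and 0.60 to 0.76. Without the 2 tumours farthest from the median they were 0.60 and 0.73. Within the 4-digit tumours they were 0.56 (permutation p = 0.0911) and 0.49 (permutation p = 0.151), and the 2-digit tumours were too few for a value. With Epx, r was 0.50 (permutation p = 0.0568, rho = 0.61 with permutation p = 0.0171).

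Hdc gave r = 0.62 with Prg3 (0.15 to 0.86, permutation p = 0.0149, rho = 0.62 with permutation p = 0.0158), which was 0.52 without tumor_33 (permutation p = 0.0576) and 0.42 without tumor_33 and tumor_36. This r was 0.75 without tumor_29 (permutation p = 0.0023). Within the 4-digit tumours it was 0.64 (permutation p = 0.0474), where Cpa3 gave 0.56. With Epx, Hdc gave 0.44 (permutation p = 0.102). Within the 4-digit tumours that was 0.62 (permutation p = 0.0584), where Cpa3 gave 0.41. With Prg2, Hdc gave 0.47 (permutation p = 0.0736, rho = 0.57 with permutation p = 0.0293), and 0.65 without tumor_29 (permutation p = 0.0126). Mcpt8 gave r = 0.56 with Prg2 (permutation p = 0.0302, rho = 0.48 with permutation p = 0.0751), and this rested on the tumours at the ends. It was 0.38 without tumor_36 (permutation p = 0.182) and 0.32 without tumor_36 and tumor_9514. Leaving out tumor_9523, tumor_29 or tumor_33 also took its permutation p above 0.05. With Prg3 and Epx, Mcpt8 gave r = 0.45 (permutation p = 0.0945) and 0.18 (permutation p = 0.529). The 3 correlations of Prss34 with eosinophil members lay between 0.15 and 0.25, and between -0.08 and -0.04 within the 4-digit tumours.

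Set side by side, the median r was 0.82 over the 3 eosinophil pairs, 0.32 over the 6 detected mast cell and basophil pairs and 0.46 over the 12 pairs between the sets, all 12 of which were positive. The median over all pairs of detected genes was 0.08. The median was thus no lower between the sets than within the mast cell and basophil set, and the difference between these medians was not tested.

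**Figure D4:**
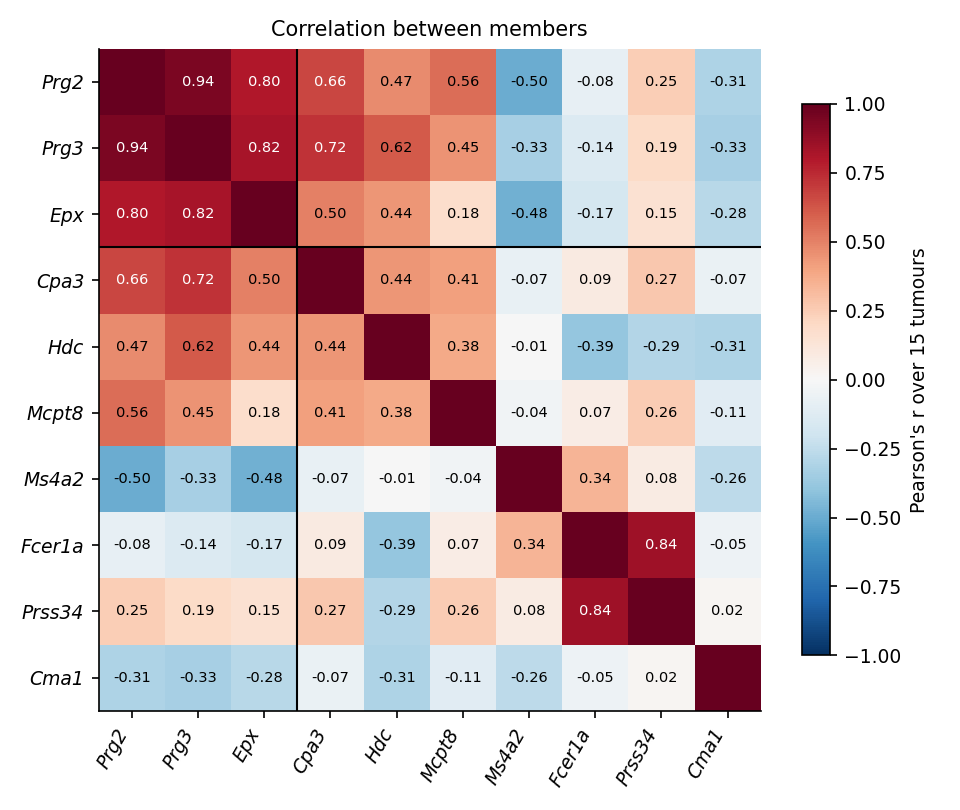
Pearson's r over 15 tumours for each pair of the 10 genes, with lines between the eosinophil and the mast cell and basophil members. The block of Prg2, Prg3 and Epx holds 0.80 to 0.94, Cpa3 gives 0.50 to 0.72 with that block, and Prss34 and Fcer1a pair at 0.84 while each lies at or below 0.27 with all other detected members.

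Prg2 and Cpa3 parted in some of the tumours. Measured in SDs from the mean of each gene, tumor_9514 lay at -1.55 for Prg2 and 0.18 for Cpa3, and tumor_9495 at 0.09 and 0.86. The reverse was seen in tumor_9529, at -0.76 for Prg2 and -2.26 for Cpa3, and in tumor_9520, at 0.12 and -1.12. In tumor_31 too Prg2 was the higher, at 1.11 against 0.23 for Cpa3. In tumor_33 and tumor_9523 both genes were more than 1 SD above their means, and in tumor_36 both were more than 1 SD below. An alternative set without tumor_9509 and tumor_9514 was also run, and there Prg2 and Cpa3 gave r = 0.76.

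Against all genes, Prg3 was the first to follow Prg2. In a limma fit of every gene on the Prg2 level, 2 of 9778 genes (0.0205%) had an adjusted p under 0.05, and 539 (5.51%) had an unadjusted p under 0.05. Prg3 was 1 of these 2, rising by 1.73 ± 0.15 (SE) in log2 level per SD of Prg2 (limma adjusted p = 1.85e-05). The other was Zc3h8, a zinc finger gene, with r = 0.87, a level of 6.42 ± 0.53 close to the detection limit and a limma adjusted p of 0.0318. Zc3h8 lies on chromosome 2, as do Prg2 and Prg3, and whether that bears on its r was not tested. With each tumour left out in turn, Prg3 passed in 15 of 15 fits and Zc3h8 in 2, those without tumor_9504 and without tumor_9509. Epx had the third smallest p, with a slope of 0.56 ± 0.11, but did not pass adjustment (0.204), and with tumor_36 left out it did (limma adjusted p = 0.0296). The slopes of Cpa3, Hdc, Mcpt8 and Prss34 on Prg2 were 0.71 ± 0.20, 0.51 ± 0.23, 0.41 ± 0.15 and 0.17 ± 0.16, with limma adjusted p from 0.753 to 0.925. By r with Prg2, Prg3 ranked 1, Epx 6, Cpa3 64, Mcpt8 263, Hdc 642 and Prss34 2982 of 9778 genes.

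No gene passed adjustment in the limma fit on the Cpa3 level (0 of 9778, 0%; 411 genes, 4.2%, at an unadjusted p under 0.05). Prg3 ranked 20 and Prg2 43 by r with Cpa3, ahead of Epx at 306, Hdc at 521, Mcpt8 at 657 and Prss34 at 1695. Eosinophil genes thus ranked above the mast cell and basophil members among the followers of the mast cell protease.

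With both anchors in the limma fit, Prg3 followed Prg2 at the same Cpa3 level by 1.53 ± 0.19 (SE) per SD, the only gene of 9777 that passed (0.0102%; 859 genes, 8.79%, at an unadjusted p under 0.05; limma adjusted p = 0.00617). Without tumor_9514 its slope was 1.43, with a limma adjusted p of 0.213. Epx had a slope of 0.58 ± 0.15 (limma adjusted p = 0.558). Hdc, Mcpt8 and Prss34 had slopes on Prg2 of 0.35 ± 0.31, 0.37 ± 0.21 and 0.09 ± 0.22. Their slopes on Cpa3 at the same Prg2 level were 0.24 ± 0.31, 0.05 ± 0.21 and 0.12 ± 0.22, and no gene passed for Cpa3 (0 of 9777, 0%; 711 genes, 7.27%, at an unadjusted p under 0.05). The difference between the slopes on Prg2 and on Cpa3 passed for no gene in limma (0 of 9777, 0%; 871 genes, 8.91%, at an unadjusted p under 0.05). That difference was 1.22 ± 0.35 for Prg3, 0.62 ± 0.27 for Epx, 0.11 ± 0.57 for Hdc and 0.32 ± 0.38 for Mcpt8.

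**Figure D5:**
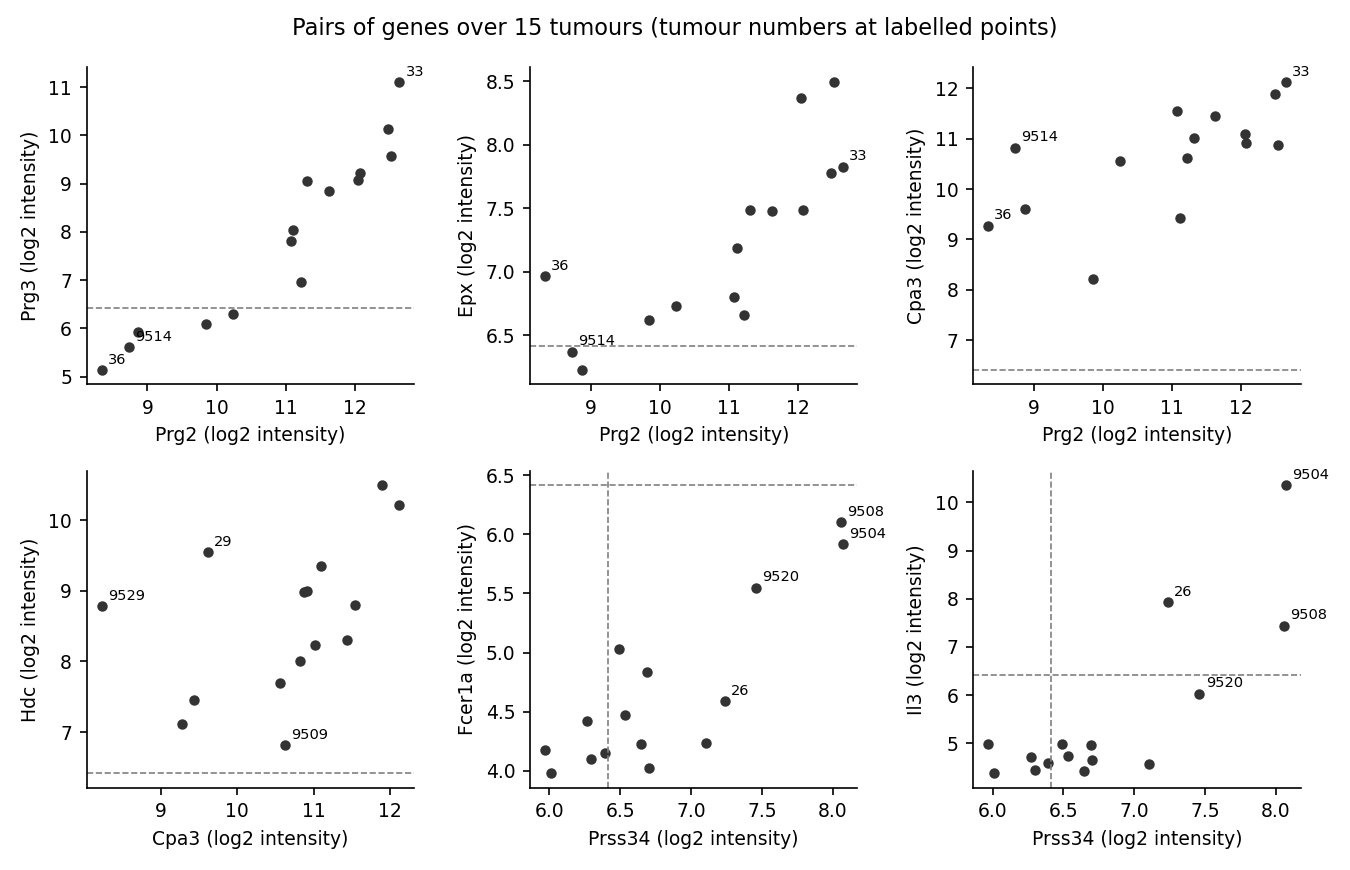
Each panel plots 2 genes against each other (log2 intensity on both axes, 1 point per tumour, n = 15, detection limit dashed where it falls in range). Prg3 rises along Prg2 where both lie above the limit, Cpa3 and Hdc part in tumor_9529 and tumor_29, and the high values of Prss34 go with high Fcer1a and Il3 in tumor_9504 and tumor_9508.

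Prss34 and Fcer1a had their own pattern. Their r was 0.84 and rho 0.68 over 15 tumours, 0.94 within the 4-digit tumours and 0.60 without tumor_9504 and tumor_9508, and no p is given because Fcer1a lay below the detection limit in every tumour. Both were high in tumor_9508, tumor_9504 and tumor_9520, which in Prg2 ranked 6, 11 and 9. With the mean over probesets in place of the median r was 0.67. With dim probesets left out, Fcer1a was left with 1 probeset, which was nearly flat, and r was 0.07. Of the dim probesets of Fcer1a, 1 with an SD of 1.20 peaked in tumor_9508 (7.66) and tumor_9504 (6.68), above the limit. Another was highest in tumor_9520 (5.50), and the dimmest lay at 3.06 in tumor_9508, below its mean of 3.37. The pattern of Fcer1a thus rested largely on 1 probeset.

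Among the growth factors of these lineages, Il3, which drives basophil and mast cell growth, was looked at beside Prss34 after its values were seen. Il3 lay below the limit on average, at 5.54. Its level was 10.36 in tumor_9504, 7.92 in tumor_26 and 7.44 in tumor_9508. It was 6.03 in tumor_9520, which is below the limit, and at most 4.98 in the other 11 tumours. The 4 named tumours were also the 4 highest in Prss34, at 8.07, 7.24, 8.06 and 7.46. The r of Il3 was 0.82 with Prss34 (rho 0.59; 0.62 without tumor_9504 and tumor_9508), 0.76 with Fcer1a and -0.07 with Prg2, given as a description with no p. Csf2, which encodes granulocyte-macrophage colony-stimulating factor, lay at 8.43 in tumor_9520 and 8.12 in tumor_9495 and at most 5.42 elsewhere. The mean of Csf2 was also below the limit, at 5.01. Il5, the eosinophil growth factor, lay below the limit on average and ranged from 5.32 to 6.62. Cyp11a1, a basophil companion gene below the limit on average, was highest in tumor_9508 (8.05) and gave r = 0.78 with Prss34.

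Of the other eosinophil genes, 12 of 14 listed were measured and 4 detected, and none passed adjustment in the limma fits on Prg2 or Cpa3. Alox15, a lipoxygenase of eosinophils, came nearest, with an SD of 0.47 over levels of 6.25 to 8.19, r = 0.70 to Prg2 and 0.66 to Cpa3, and its highest level in tumor_9523. Csf2rb, the receptor chain shared by interleukin 3, interleukin 5 and granulocyte-macrophage colony-stimulating factor, lay at 9.39 ± 0.79 with r = 0.37 and 0.27, and was lowest in tumor_9509 (7.13). Rnase2a, an eosinophil-associated ribonuclease listed under an older symbol, went its own way at 6.62 ± 1.76. It was highest in tumor_36 (10.44), where Prg2 was lowest, and its r with Prg2 was -0.28, and 0.03 without tumor_36 and tumor_9514. This ribonuclease family has near-identical copies, so which copy its probes report is uncertain. Il5ra, the interleukin 5 receptor chain that defines eosinophil progenitors, lay at 4.39 ± 0.41 and Ccr3, the eotaxin receptor, at 5.87 ± 0.58, both below the limit.

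Of 20 mast cell companions 17 were measured and 5 detected, and of 16 basophil companions 15 and 10, and again none passed adjustment in either fit. Gata2, the transcription factor shared by mast cells, basophils and eosinophil progenitors, lay at 7.72 ± 0.29 (SD, n = 15), lowest in tumor_9529 (7.29) and tumor_9514 (7.29) and highest in tumor_9523 (8.38), with r = 0.67 to Prg2, 0.63 to Cpa3 and 0.62 to Mcpt8. Kit, the stem cell factor receptor, lay at 8.83 ± 0.55, above the limit in all tumours, with r = 0.16 and -0.14 to Prg2 and Cpa3, the first of which was -0.56 without tumor_36 and tumor_9514. The tryptases Tpsb2 and Tpsab1 (6.15 ± 0.24 and 5.79 ± 0.26) and the mucosal mast cell proteases Mcpt1 and Mcpt2 (4.66 ± 0.27 and 4.38 ± 0.38) lay below the limit. Mitf had a mean just below it, at 6.38 ± 0.15, and lay above it in 8 of 15 tumours. The basophil companion Alox5, 5-lipoxygenase, had r = -0.57 with Cpa3 and -0.07 with Prg2. Csf1, a macrophage growth factor, had r = 0.47 with Prg2 and 0.57 with Cpa3, and lay above the limit in 6 of 15 tumours.

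Of the chains of the immunoglobulin E receptor, only the shared gamma chain, Fcer1g, was detected, and the mean gene values of Fcer1a and Ms4a2 lay below the limit. A separate list held signalling genes of this receptor, with Fcer1g but without Fcer1a and Ms4a2. Fcer1g lay at 10.85 ± 0.37 (SD, n = 15), and other myeloid cells also express it. All 9 measured genes of the signalling list were detected. None passed adjustment, and the list's median r was 0.16 with Prg2 and -0.07 with Cpa3. Of the beta chain cytokine axis 6 of 10 measured genes were detected, and Csf2rb2 had the highest r, 0.47 with Prg2 and 0.51 with Cpa3. Of the granulocyte transcription factors 14 of 15 measured were detected and none passed. Gata1 was below the limit at 6.17 ± 0.23. Its cofactor gene Zfpm1 (7.01 ± 0.20) gave r = 0.55 with Prg2 and 0.50 with Cpa3, and Ikzf2, a zinc finger factor gene, gave 0.48 and 0.75. Irf8, a factor of monocyte and dendritic cell development, gave -0.48 and -0.59, and Cebpe, a factor of granulocyte maturation, lay at 10.02 ± 0.28 with r = -0.12 and -0.01. Of the genes that handle histamine and lipid mediators, 6 of 9 were detected, with median r of -0.05 and -0.09. Over all detected genes the median r was 0.11 with Prg2 and 0.01 with Cpa3.

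The genes nearest to Prg2 after Prg3 were Gnb1l (r = 0.90), Zc3h8 (0.87), Frg1 (0.85), Lpar2 (0.84), Epx (0.80), Dhodh (0.80) and Fam72a (0.79), over 15 tumours and among 9461 genes with at least 3 probesets. Those nearest to Cpa3 were Zfp691 (0.78), Tm6sf1 (0.77), Creg2 (0.76), Ikzf2 (0.75), Aqp11 (0.75), Det1 (0.75), Dynll1 (0.74) and Prnd (0.74). The highest of many correlations are high by selection, and apart from Prg3 and Zc3h8 none of these passed adjustment in limma. Many changed little in level: Gnb1l had an SD of 0.17 and Zfp691 of 0.13. At the other end lay Nkx1-2 (-0.79) and Svopl (-0.79) for Prg2 and Arhgef3 (-0.78), Mmd (-0.74), Nin (-0.73) and Vps4b (-0.73) for Cpa3.

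Genes adjacent to the members correlated with them to different extents. On chromosome 2, the detected genes beside the Prg2 and Prg3 pair did not rise with it, with r to Prg2 of 0.25 for Slc43a1, -0.42 for Rtn4rl2 and 0.20 for Slc43a3. P2rx3 and Aplnr, on the other side of the pair, were below the limit. Elsewhere on chromosome 2, Hdc had r = 0.77 with its neighbour Gabpb1, a transcription factor subunit gene (8.31 ± 0.40), and 0.65 with Usp8, a deubiquitinase gene (8.39 ± 0.37). Gabpb1 and Usp8 were lowest in tumor_36, where Hdc was the second lowest. Dtwd1, a detected neighbour on the other side of Hdc, had r = 0.40. For scale, Prg3 with r = 0.62 ranked 368 of 9778 genes by r with Hdc. Whether these neighbours stand out from other genes was not tested. On chromosome 14, Mcpt8 had r = 0.01 with the adjacent Ctsg, the neutrophil protease cathepsin G, which lay at 12.20 ± 0.24, and the neighbouring Mcpt2, Mcpt1 and Cma1 were below the limit. On chromosome 3, the neighbours of Cpa3 had r between -0.34 and 0.36.

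Markers of other cells were set beside these genes. Of 9 marker lists, none held a gene that passed adjustment with Prg2 or Cpa3 in limma, and the median r of the lists lay between -0.27 and 0.19 with Prg2 and between -0.18 and 0.17 with Cpa3. Primary granule genes of promyelocytes and neutrophil precursors, the main cells of this leukaemia, had median r of 0.19 and 0.17 over 7 detected genes, and secondary granule genes of 0.05 and -0.15 over 9. Itga2b, the megakaryocyte integrin that early progenitors and mast cells also express, was the single marker that moved most with the members. It lay at 7.89 ± 0.73 (SD, n = 15), lowest in tumor_36 (6.79) and highest in tumor_33 (9.53), with r = 0.66 to Prg2, 0.57 to Cpa3 and 0.81 to Hdc. Other megakaryocyte markers did not follow: Ppbp had r = 0.05 to Prg2, Gp9 -0.41, Gp1bb 0.14 and Vwf -0.10. The log2 of the summed intensity of the megakaryocyte list was lowest in tumor_36 (9.49) and highest in tumor_33 (10.47), and the part of these markers in the results above was not tested.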

How the data were processed

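RNA of 15 leukaemic spleens was measured on Affymetrix Mouse Exon 1.0 ST arrays. The deposited table holds 229581 probesets as linear intensity, and the submitters' processing notes name RMA and build mm9 for the authors' processing. Its settings are not given in the sources used here. Intensities were converted to log2 from the deposited values with no pseudocount and no further normalization. Probesets were named through GEO's platform annotation: 208397 had 1 symbol and were used, 3965 had several and 17219 none. Older symbols were updated through RefSeq's table (GRCm38.p6): 14132 symbols were current, 2099 were renamed and 68 kept as listed. No 2 arrays held identical values. Nothing in the labels says how tumours share mice or litters, and p-values describe only how these samples differ, which may be partly technical.

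Gene values, lists and detection are as in the text. Fits used limma 3.58.1 (lmFit, eBayes, Benjamini-Hochberg over all detected genes, threshold 0.05) in R 4.3.3, with the anchor gene left out of its own fit and its level scaled to SD 1. Correlations used 100000 permutations in Python 3.11.15 with numpy 2.4.6, pandas 2.3.3 and scipy 1.17.1, and intervals of r are 95% Fisher intervals. Figures were drawn with matplotlib 3.10.9. The fits were also run on simulated data with independent noise for each gene. That setting cannot show how they behave where genes are correlated. The genes named are all 10 members and the 8 genes with at least 3 probesets of highest r with Prg2 and with Cpa3. Of the 4 genes of lowest r with each, a few are left out. From every companion list the 2 detected genes of highest absolute r with each of Prg2 and Cpa3 were taken. Of these, Ndst2, Srgn, Btk, Vav1, Inpp5d, Syk, Slc18a2, Ptgs1 and Alox5ap are left out above. Several regulators (Fcer1g, Kit, Gata1, Gata2, Cebpe, Csf2rb, Il5ra) and up to 3 neighbours on either side were also named. Others (Il3, Il5, Csf2, Cyp11a1, Irf8, Rnase2a, Ccr3, the undetected mast cell genes and Itga2b with the other megakaryocyte markers) were picked after their values were seen. Members and lists were chosen with earlier results of these data known. Siglecf, Cd24a, Mcpt4, Cma2, Il1rl1, Osm, Lyn, Csf2ra, Cebpd and Aoc1 were not measured under those symbols.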

Additional observations from a re-analysis of the deposited data

How the results depend on the processing

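No paired analysis was possible because all tumours form 1 group. In the limma fit on Prg2 the count of genes past adjustment was 2, and 1, Prg3 without Zc3h8, with the mean over probesets, with probesets above the 25th percentile, with arrays centred, with quantile normalization, with the 60th percentile filter and without tumor_9509 and tumor_9514. With each tumour left out in turn it was 1 to 2: Prg3 passed in all 15 fits, Zc3h8 in 2 and Epx in 1. For Prg2 given Cpa3 the count was 1 and, with a tumour left out, 0 to 1, the 0 being without tumor_9514. For Cpa3 given Prg2 it was 0, and 2 (Ms4a6b and Ms4a6c) without tumor_9509 and tumor_9514. Counts for Cpa3, for the difference of slopes and for members by tumour number stayed at 0 under every alternative run. The correlation of Prg2 with Cpa3 was 0.66, and 0.49 (permutation p = 0.151) within the 4-digit tumours, 0.60 to 0.76 with a tumour left out. Of the 21 pairs of detected members 7 had a permutation p under 0.05 for Pearson's r. The count was 4 within the 4-digit tumours and 5 to 9 with a tumour left out, alternatives chosen after seeing the data. None of these counts or of the correlations between members that had a permutation p under 0.05 changed direction, but weaker ones did (Prg2 with Prss34 was 0.25, and -0.07 within the 4-digit tumours; with Fcer1g 0.16 and -0.27). Values of single genes and of single pairs of members other than Prg2 with Cpa3 were counted together. Of these, 482 stayed on their side of the threshold or within 1 SD, 7 newly passed and 9 no longer passed. Among the pairs, Prg2 with Mcpt8 no longer passed in 6 of 21 alternatives, and Prg2 with Hdc newly passed in 3. A further 3 values moved. The 3 were the levels of Ms4a2, Fcer1a and Cma1 with probesets above the 25th percentile (6.96, 7.23 and 6.58), where Fcer1a counted as detected and Prss34 did not. Centring shifted an array median by up to 0.31 and quantile normalization by up to 0.21 on the log2 scale. Signal over background limits Prg3 and Prss34, each at or below the limit in 5 tumours, and Fcer1a, Ms4a2 and Cma1. The cause of these changes was not tested.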
